A study of Mus musculus with 6 samples.

Results

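Splenic CD11b+Gr-1high cells of 4T1 tumor-bearing mice were compared with the same cells of mice given recombinant G-CSF, over all 45281 probes of the array. The members are the 2 arrays of the 4T1-TB group and the 2 arrays of the G-CSF group, 4 of the 6 arrays of the series, taken by their labels. The other 2 arrays hold cells of non-tumor-bearing (WT) mice and are given only for orientation. The study set the tumor-driven cells beside cells raised by the cytokine alone. All mice were female BALB/c mice, 6 to 8 weeks old per the methods. 4T1-TB mice received 50000 4T1 cells, a BALB/c mammary carcinoma line, in an abdominal mammary gland and carried tumors of over 1000 mm3. G-CSF mice carried no tumor and received 10 µg of G-CSF a day under the skin for 5 days. Cells were sorted to over 98% purity in 2 independent experiments, with 2 biologic replicates per group. Whether a replicate held cells of 1 mouse or of several is not given in the sources used here. The G-CSF mice therefore model 1 cytokine at 1 dose and time, and the 4T1-TB mice model 1 transplanted line.

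G-CSF is the growth factor that drives neutrophil production, through its receptor on neutrophils and their precursors, and 4T1 cells are known to secrete it. Neutrophils make their granule proteins in order as they mature: the primary granules with myeloperoxidase in promyelocytes, the secondary granules with lactoferrin in myelocytes, which still divide, and the tertiary granules in later cells that no longer divide. In tumor-bearing mice and under G-CSF, immature cells of this lineage accumulate in the spleen, and those that suppress T cells are named granulocytic myeloid-derived suppressor cells (MDSC).

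The values are log2 intensities after quantile normalization, and a probe was taken as detected on an array where its detection p-value was under 0.05. Between 8568 and 10036 probes were detected on the 4 arrays, and 9517 on at least 2 of them. The median intensity lay between 117.2 and 123.4 on these arrays, so a log2 intensity near 7 is the level of an undetected probe. Of 13 measured genes of the neutrophil lineage, 11 were detected on all 4 arrays, with S100a8 at 14.00 and 14.07 on the 4T1-TB arrays and 13.81 and 13.70 on the G-CSF arrays. Itgam, which encodes CD11b, was not detected on any of the 4 arrays with the probe used, and Ly6g, which encodes a Gr-1 antigen, has no probe with its name. RNA of the bulk cells was measured, so fewer cells of a type and less RNA per cell cannot be told apart.

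The 2 G-CSF arrays differed from each other more than either differed from a 4T1-TB array. Of the 9517 detected probes, 814 lay at least 2-fold apart between the G-CSF arrays, against 98 between the 4T1-TB arrays. G-CSF 1 stood 2-fold apart from 4T1-TB 1 for 156 probes and from 4T1-TB 2 for 270 probes. G-CSF 2 stood apart from them for 600 and 551 probes. The SD of the difference over the same probes was 0.32 between 4T1-TB 1 and G-CSF 1, smaller than the 0.34 between the 4T1-TB arrays, and 0.68 between the G-CSF arrays. The median SD of a detected probe was 0.09 within the 4T1-TB group and 0.18 within the G-CSF group. A value that differs between the groups can thus rest on G-CSF 2 alone, and the value of each array is given for that reason.

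**Figure D1:**
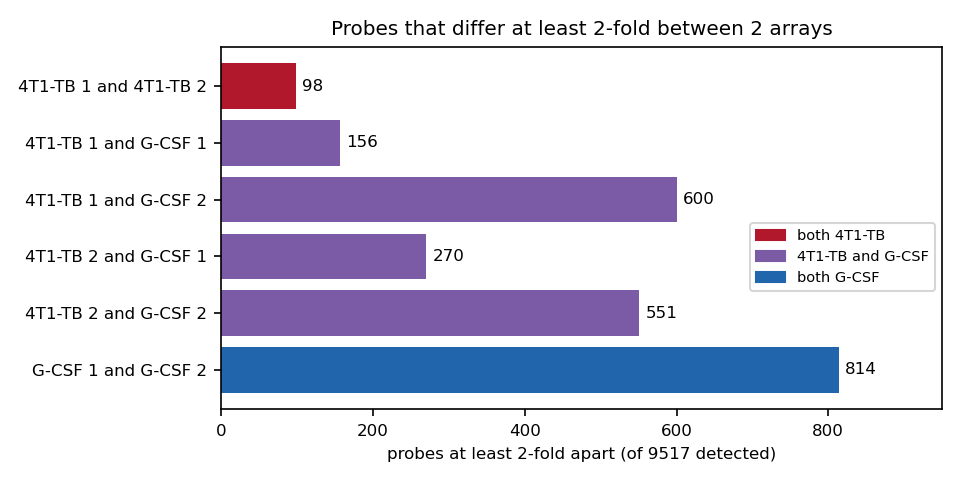
Number of detected probes (of 9517) that lay at least 2-fold apart between the 2 arrays named at the left, with red for the pair of 4T1-TB arrays, purple for a 4T1-TB and a G-CSF array and blue for the pair of G-CSF arrays. The pair of G-CSF arrays has the longest bar (814) and the pair of 4T1-TB arrays the shortest (98).

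The methods took a probe as different where its fold change was 2 or more and its P was under 0.01, read here as an unadjusted P. By this criterion 34 of 45281 probes were called (0.0751%), and of these 33 probes (0.0729%) were brighter in 4T1-TB cells and 1 probe (0.00221%) was dimmer. They named 29 genes. Where the arrays were centred on their medians and not quantile normalized, 10 probes were called, 80% of them higher, against 97.1% here. No probe passed a Benjamini-Hochberg adjusted p of 0.05 in limma (lowest adjusted p = 0.684), while 1416 probes (3.13%) had an unadjusted P under 0.05 and 266 (0.587%) under 0.01. No difference named below therefore holds after correction over the array. Over the detected probes the median 95% confidence interval of the difference was ± 0.31 on the log2 scale, and for 8320 of them (87.4%) the interval lay within a 2-fold change in either direction. Differences of dim probes are shrunken on these values, so this share does not show that the RNA differed by less than 2-fold. Of all probes, 135 differed at least 2-fold here and 574 with neqc background correction. The intervals also use 1 spread per probe for all groups, though the G-CSF arrays spread more.

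The 33 probes called higher shared an order of the arrays. The 4T1-TB arrays lay above both G-CSF arrays for each of them, which the criterion makes likely, and G-CSF 2 lay below G-CSF 1 for 29. The 4T1-TB mean was at least 2-fold above G-CSF 2 for 30 probes, above G-CSF 1 for 17 and above both for 14. G-CSF 2 was within 0.5 of the WT mean on the log2 scale for 24 of the 33 probes, and G-CSF 1 for 9. Of the 34 called probes, 31 were detected on all 4 arrays, and where only the 9517 probes detected on at least 2 arrays were fitted, 28 were called, all among the 34. Without G-CSF 1, 554 probes were called, of which 144 lay above G-CSF and 410 below, and 31 of the 34 remained. Without G-CSF 2, 132 were called, 120 higher and 12 lower, and 18 remained. Without 4T1-TB 1, 65 were called, 61 higher and 4 lower, and 14 remained. Without 4T1-TB 2, 30 were called and 15 remained. With median centring 8 remained. The adjusted test, with no call over the 6 arrays, called 1310 probes without G-CSF 1, 108 without G-CSF 2 and 3 without 4T1-TB 1. In these fits the group that lost an array has a single one, which is assumed to vary as the other groups do, so their calls are not replicated differences.

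**Figure D2:**
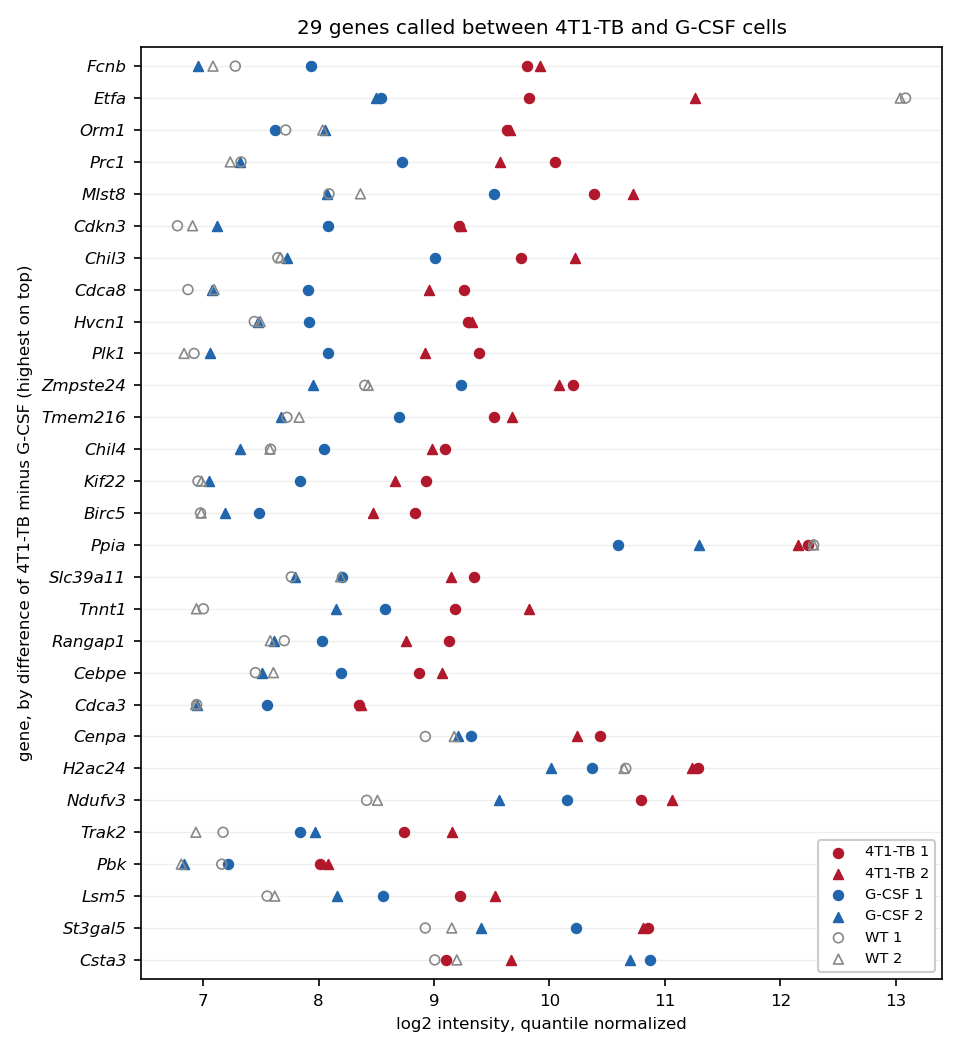
Log2 intensity (horizontal axis) of the 29 genes called between 4T1-TB and G-CSF cells, 1 probe per gene, with red for 4T1-TB, blue for G-CSF and open grey for WT arrays, circles for replicate 1 and triangles for replicate 2. The 28 genes above Csta3 have both red symbols to the right of both blue ones, and for most of them the blue triangle lies at or near the grey symbols.

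Of the 29 called genes, 10 are known for roles in cell division, a grouping made after the calls were seen, and 6 of the 10 are in the list of cell cycle genes described below. Plk1, polo-like kinase 1, which drives entry into and passage through mitosis, had log2 intensities of 9.39 and 8.92 in 4T1-TB cells and 8.08 and 7.06 in G-CSF cells, with WT at 6.92 and 6.83 (log2 difference 1.58, SE 0.34, adjusted p = 1 from limma). G-CSF 1 lay between the 4T1-TB and WT levels and G-CSF 2 at the WT level. Prc1, which bundles the microtubules of the central spindle, read 10.05 and 9.57 in 4T1-TB cells and 8.72 and 7.32 in G-CSF cells (log2 difference 1.79, SE 0.45, adjusted p = 1 from limma). Both Prc1 values of 4T1-TB cells were above both of G-CSF cells, and the G-CSF values were 1.41 apart. Cdkn3, a phosphatase that acts on cyclin-dependent kinases, had 9.22 and 9.24 in 4T1-TB cells and 8.08 and 7.12 in G-CSF cells (log2 difference 1.62, SE 0.30, adjusted p = 1 from limma).

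The chromosomal passenger complex guides chromosomes to the spindle, and 2 of its subunits were called. Cdca8, borealin, had 9.26 and 8.95 in 4T1-TB cells and 7.91 and 7.07 in G-CSF cells (log2 difference 1.62, SE 0.28, adjusted p = 1 from limma). Birc5, survivin, had 8.83 and 8.47 in 4T1-TB cells and 7.48 and 7.19 in G-CSF cells (log2 difference 1.31, SE 0.15, adjusted p = 0.684 from limma). The G-CSF arrays agreed more closely for Birc5 than for Cdca8, and this Birc5 probe was called under each of the 12 other settings tried. Those settings are not all separate, as leaving out either WT array gives the same test as fitting the 4 arrays alone. A dimmer Birc5 probe was not called, with 7.14 and 7.21 in 4T1-TB cells and 6.86 and 6.99 in G-CSF cells (0.25, SE 0.14). Its WT values were 7.08 and 7.49. Aurkb, the kinase of the same complex, stayed near the undetected level with 7.19 and 6.90 in 4T1-TB cells and 6.95 and 6.82 in G-CSF cells. Cenpa, the histone H3 variant that marks centromeres, had 10.44 and 10.24 in 4T1-TB cells and 9.32 and 9.20 in G-CSF cells, with G-CSF replicates only 0.12 apart (log2 difference 1.08, SE 0.11, adjusted p = 0.684 from limma).

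The remaining genes of this role had the same order of groups. Kif22, a kinesin that moves chromosome arms, had 8.93 and 8.66 in 4T1-TB cells and 7.84 and 7.05 in G-CSF cells (log2 difference 1.35, SE 0.25). Rangap1, which activates the GTPase of Ran at kinetochores and nuclear pores, had 9.13 and 8.76 in 4T1-TB cells and 8.03 and 7.62 in G-CSF cells (1.12, SE 0.18). Cdca3, a trigger of mitotic entry, had 8.35 and 8.36 in 4T1-TB cells and 7.55 and 6.95 in G-CSF cells (1.11, SE 0.19). G-CSF 2 did not detect Cdca3 and lay at its WT level. Pbk, a mitotic kinase, had 8.01 and 8.08 in 4T1-TB cells and 7.22 and 6.83 in G-CSF cells (1.03, SE 0.16), and G-CSF 2 did not detect it either. Their selection makes it likely that both 4T1-TB values lie above both G-CSF values. Over the 10 genes, 4T1-TB 1 exceeded G-CSF 1 by 0.80 to 1.35 and 4T1-TB 2 exceeded G-CSF 2 by 1.03 to 2.25 on the log2 scale. 4T1-TB 2 exceeded G-CSF 1 by 0.73 to 1.15, and G-CSF 1 exceeded G-CSF 2 in all 10.

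Promoters of 4 of these genes are shown because genes of mitosis are known to share 2 short elements near their starts, the cell cycle genes homology region, here searched as TTTGAA, and the CCAAT box. Each window runs from 150 bases before to 50 bases after the RefSeq start in GRCm38.p6, 5′ to 3′ on the strand of the gene, and capitals mark matches of TTTGAA or CCAAT on either strand (reversed, TTCAAA and ATTGG).
Plk1, chr7:122159285-122159484, plus strand: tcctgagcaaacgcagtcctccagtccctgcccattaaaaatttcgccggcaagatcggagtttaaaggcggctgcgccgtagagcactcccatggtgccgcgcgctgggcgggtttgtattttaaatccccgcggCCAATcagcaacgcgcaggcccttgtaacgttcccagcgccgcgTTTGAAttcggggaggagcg
Cdca8, chr4:124936868-124937067, minus strand: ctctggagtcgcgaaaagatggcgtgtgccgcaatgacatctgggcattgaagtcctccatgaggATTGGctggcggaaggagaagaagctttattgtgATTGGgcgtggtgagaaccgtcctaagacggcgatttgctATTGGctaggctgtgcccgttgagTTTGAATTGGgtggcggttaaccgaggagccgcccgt
Cdca3, chr6:124830026-124830225, plus strand: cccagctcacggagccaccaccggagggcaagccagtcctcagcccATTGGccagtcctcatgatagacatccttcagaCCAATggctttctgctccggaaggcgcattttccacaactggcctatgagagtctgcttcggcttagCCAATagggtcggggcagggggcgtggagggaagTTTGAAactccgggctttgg
Cenpa, chr5:30666736-30666935, plus strand: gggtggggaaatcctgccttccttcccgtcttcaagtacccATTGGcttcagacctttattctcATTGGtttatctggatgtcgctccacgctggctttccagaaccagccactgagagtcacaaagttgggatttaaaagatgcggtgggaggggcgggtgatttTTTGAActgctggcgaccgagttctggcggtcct
Counted from 1 at the start, TTTGAA began at base 31 in Plk1 and Cdca3, at base 17 in Cenpa and at base 14 in Cdca8, where its last base is shared with an inverted CCAAT. Of the 10 called genes of cell division, 9 have a promoter in the table, and 8 of these held TTTGAA and 7 held CCAAT in the window. Birc5 held neither. Of the other 19 called genes, 16 have a promoter, of which 4 held TTTGAA and 8 held CCAAT. The list of cell cycle genes described below, which overlaps the called genes, has 36 promoters. Of these 18 (50%) held TTTGAA and 27 (75%) held CCAAT, so the share with CCAAT was near that of the called genes of cell division (77.8%). Among all 32851 promoters so searched, 11.2% held TTTGAA and 28.6% held CCAAT in a window of this length. A match is a description of the letters and not of binding, which was not measured.

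Over a list of cell cycle genes, 45 were measured and 21 were detected on at least 2 of the 4 arrays. Both 4T1-TB values lay above both G-CSF values for 21 of the 45 genes and below them for 4, against 14.9% and 14.2% of all 19057 genes. By the 2-fold criterion 6 of the 45 were called higher, against 0.142% of all genes. At an unadjusted P under 0.05, 13 were higher and 1 lower, against 2.46% and 1.62% of all genes. Of the 14 members with a mean log2 intensity of at least 7.5, a limit set after seeing the data, 11 were higher without overlap and 0 lower, against 14.0% and 9.42% of genes at that level. At an unadjusted P under 0.05 these 14 had 10 higher and 0 lower, against 6.63% and 4.16%. The median difference was 0.09 over the 45 genes and 1.01 over the 14, against 0.00 and 0.03 over all genes. The limit of 7.5 is on a mean that includes the 4T1-TB arrays. A dim gene can thus pass it through high 4T1-TB values, so the values of the 14 add no support to those of the 45. In all 11 genes G-CSF 1 was above G-CSF 2.

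Members of the list that were not called ranged from large differences with a wide spread to none. Aurka, the Aurora kinase of the spindle poles, had 9.42 and 8.48 in 4T1-TB cells and 8.11 and 7.10 in G-CSF cells (log2 difference 1.35, SE 0.43, adjusted p = 1 from limma). Cdc20, an activator of the anaphase-promoting complex, had 8.16 and 8.27 in 4T1-TB cells and 7.55 and 7.00 in G-CSF cells (log2 difference 0.94, SE 0.18, adjusted p = 1 from limma), just below 2-fold. Rrm1, a subunit of ribonucleotide reductase, had 7.72 and 7.66 in 4T1-TB cells and 7.12 and 7.13 in G-CSF cells, a small difference with close replicates (log2 difference 0.56, SE 0.07, adjusted p = 0.805 from limma). Mcm5, of the replicative helicase, differed by 0.66 (SE 0.22), and its partner Mcm4 by 0.11 (SE 0.21) with overlapping groups. Ccna2, cyclin A2, went the other way close to the limit of detection, with 6.80 and 6.84 in 4T1-TB cells, where it was not detected, and 7.07 and 7.07 in G-CSF cells, where it was (-0.25, SE 0.05), at least 1.01-fold lower in 4T1-TB cells. Top2a, Cdk1, Ccnb2 and Pcna were between 6.70 and 7.06 on all 4 arrays, at or near the undetected level.

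Genes of secondary granules and of the myelocyte stage formed another group among the called genes, also made after the calls were seen. Fcnb, ficolin B, a lectin that myeloid precursors make, had the largest difference of all called probes. Its log2 intensities were 9.81 and 9.92 in 4T1-TB cells and 7.93 and 6.96 in G-CSF cells, with WT at 7.28 and 7.09 (5.35-fold, log2 difference 2.42, SE 0.30, adjusted p = 0.811 from limma). Fcnb was not detected on G-CSF 2. A dimmer Fcnb probe gave 7.61 and 7.54 in 4T1-TB cells and 7.07 and 7.01 in G-CSF cells, again without overlap (0.54, SE 0.07). Orm1, orosomucoid 1, an acute-phase protein that neutrophils store in secondary granules, had 9.63 and 9.66 in 4T1-TB cells and 7.62 and 8.05 in G-CSF cells, with WT at 7.71 and 8.04 (log2 difference 1.81, SE 0.17, adjusted p = 0.684 from limma). For Orm1 both G-CSF arrays lay at the WT level, and G-CSF 1 was the lower.

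Chil3 and Chil4 encode the chitinase-like proteins Ym1 and Ym2, and Chil3 is made by neutrophil precursors. A probe of Chil3 had 9.76 and 10.22 in 4T1-TB cells and 9.01 and 7.73 in G-CSF cells (log2 difference 1.62, SE 0.41), and a brighter probe had 10.85 and 10.94 in 4T1-TB cells and 9.89 and 8.80 in G-CSF cells (1.55, SE 0.33). Chil4 had 9.09 and 8.98 in 4T1-TB cells and 8.04 and 7.32 in G-CSF cells (1.35, SE 0.22). These genes are near-identical copies and their probes may read each other's RNA, which was not tested. Cebpe, the transcription factor that secondary granule genes need, had 8.87 and 9.07 in 4T1-TB cells and 8.19 and 7.51 in G-CSF cells (log2 difference 1.12, SE 0.22, adjusted p = 1 from limma). A second detected Cebpe probe overlapped between the groups, with 7.91 and 7.86 in 4T1-TB cells and 7.24 and 7.82 in G-CSF cells.

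Over the list of secondary granule genes, 10 of 17 measured genes were higher in 4T1-TB cells without overlap and 0 lower (14.9% and 14.2% of all genes). By the 2-fold criterion 3 were called higher, against 0.142% of all genes, and the median difference was 0.16, against 0.00 over all genes. Members below the criterion showed the same order at high levels. Camp, cathelicidin, had 11.84 and 12.08 in 4T1-TB cells and 11.42 and 10.63 in G-CSF cells (difference 0.93, SE 0.26, adjusted p = 1 from limma). Lcn2, lipocalin 2, which binds bacterial siderophores, had 13.70 and 14.27 in 4T1-TB cells and 13.31 and 13.43 in G-CSF cells (0.61, SE 0.18). Itgb2l, an integrin beta subunit of neutrophils, had 9.50 and 9.91 in 4T1-TB cells and 9.08 and 7.73 in G-CSF cells (1.30, SE 0.44). All 3 had an unadjusted P under 0.05. Ltf, lactoferrin, was near the top of the scale with 14.37 and 14.37 in 4T1-TB cells and 14.27 and 13.57 in G-CSF cells (0.45, SE 0.22). All 4 had both 4T1-TB values above both G-CSF values.

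Other members of the same list parted the G-CSF arrays instead. Ngp, neutrophilic granule protein, had 7.67 and 7.81 in 4T1-TB cells, against 7.28 and 9.99 on G-CSF 1 and 2 and 12.21 and 11.91 in WT cells. Hp, haptoglobin, had 9.23 and 9.34 in 4T1-TB cells and 7.70 and 13.42 in G-CSF cells. For both genes the 4T1-TB values lay between the 2 G-CSF values, so no difference between the groups can be read from them.

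Of 14 measured genes of primary granules, 3 were higher in 4T1-TB cells without overlap and 1 lower, against 14.9% and 14.2% of all genes. Mpo, myeloperoxidase, had 8.65 and 7.06 in 4T1-TB cells and 7.85 and 7.15 in G-CSF cells (difference 0.36, SE 0.52). Ctsg, cathepsin G, had 8.13 and 7.02 in 4T1-TB cells and 7.36 and 6.92 in G-CSF cells. Both were highest on 4T1-TB 1 and next on G-CSF 1. Serpinb1a, an inhibitor of the serine proteases of these granules, had 11.19 and 10.99 in 4T1-TB cells and 10.26 and 9.18 in G-CSF cells, against 7.76 and 8.24 in WT cells (log2 difference 1.37, SE 0.36, adjusted p = 1 from limma), just short of the P criterion. Prtn3, proteinase 3, had 8.07 and 7.83 in 4T1-TB cells and 7.22 and 7.89 in G-CSF cells, lowest on G-CSF 1.

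**Figure D3:**
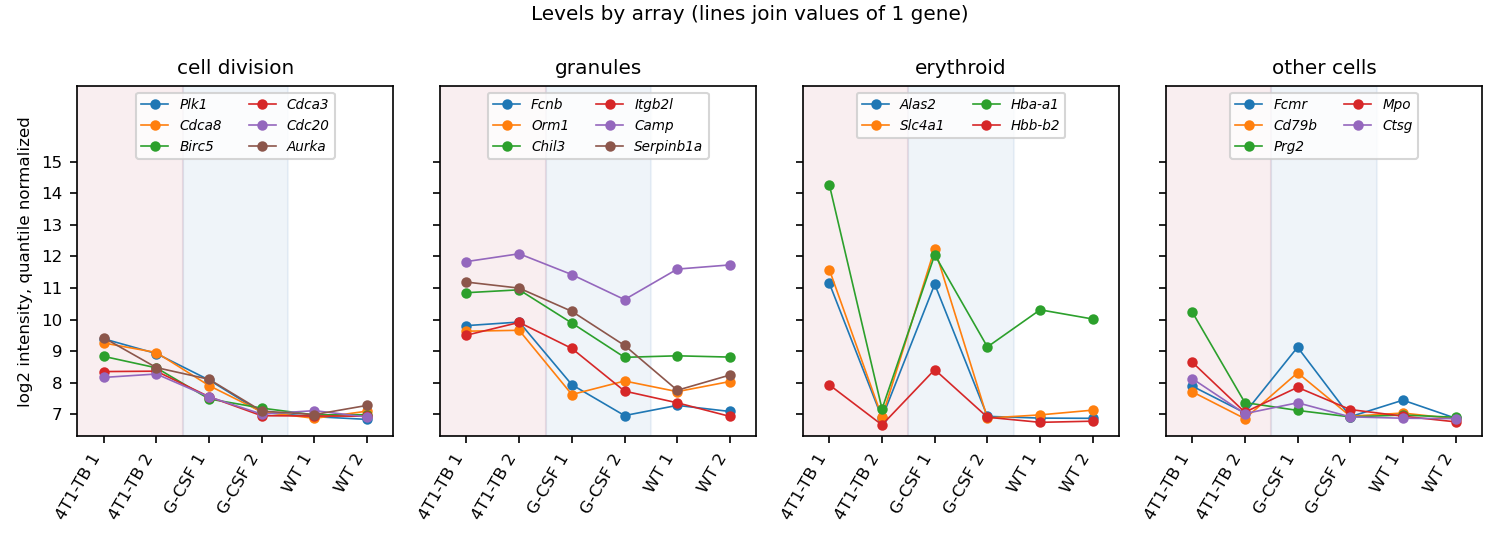
Log2 intensity of single genes on the 6 arrays, with lines that join the values of 1 gene, red shading for 4T1-TB and blue for G-CSF arrays. Genes of cell division and granules step down between the 4T1-TB arrays and G-CSF 2. Erythroid genes and those in the panel titled other cells peak on 4T1-TB 1 or G-CSF 1. That panel includes Mpo and Ctsg, which are genes of neutrophil primary granules.

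Genes of other cell types also differed between the arrays, and those of erythroid cells did so most clearly by replicate number. Of 16 measured erythroid genes, 8 were not detected on any of the 4 arrays. The summed intensity of the list was 32844 and 3100 in 4T1-TB cells and 24615 and 3433 in G-CSF cells. Sums here and below are of intensities before normalization, so they also follow the brightness of an array. Alas2, which begins heme synthesis in red cell precursors, had 11.15 and 6.88 in 4T1-TB cells and 11.12 and 6.93 in G-CSF cells. Slc4a1, the band 3 anion exchanger of red cells, had 11.58 and 6.91 in 4T1-TB cells and 12.24 and 6.88 in G-CSF cells. Alas2 and Slc4a1 were thus high on replicate 1 of both groups and at or near the undetected level on replicate 2 of both. The globin probes given here were also higher on replicate 1. Those of Hba-a1 and Hbb-bt stayed above that level on G-CSF 2, while a probe of Hbb-bs did not. That Hbb-bs probe had 11.31 and 7.04 in 4T1-TB cells and 12.31 and 7.01 in G-CSF cells. Hba-a1 had 14.27 and 7.16 in 4T1-TB cells and 12.05 and 9.13 in G-CSF cells, with WT at 10.31 and 10.01. A probe of Hbb-bt had 14.07 and 8.20 in 4T1-TB cells and 14.07 and 10.06 in G-CSF cells.

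For B cells the summed intensity of 16 genes was 4216 and 2823 in 4T1-TB cells and 6051 and 3421 in G-CSF cells, and 3 of the genes, Cr2, Pou2af1 and Bank1, were not detected on any of these arrays. Fcmr, the receptor for IgM, had 7.89 and 7.04 in 4T1-TB cells and 9.12 and 6.92 in G-CSF cells. For T cells the sum of 18 genes was 5325 and 4730 in 4T1-TB cells and 6341 and 4422 in G-CSF cells, and 6 genes with Cd4 and Cd8a among them were not detected. For macrophages the sum of 18 genes was 12093 and 8844 in 4T1-TB cells and 15822 and 12097 in G-CSF cells, with 7 genes not detected. For monocytes it was 4226 and 3176 in 4T1-TB cells and 4702 and 3415 in G-CSF cells over 17 genes, with 9 not detected. Each of these 4 sums was highest on G-CSF 1. Among eosinophil genes, Prg2, the major basic protein, was high on a single array, with 10.24 and 7.37 in 4T1-TB cells and 7.12 and 6.91 in G-CSF cells, and its mean difference of 1.79 rests on 4T1-TB 1. Of 7 eosinophil genes, 4 were not detected.

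Markers of the tumor's epithelium were mostly absent: 10 of 16 genes were not detected, Epcam, Krt8 and Krt18 among them, and the summed intensity was 18701 and 20286 in 4T1-TB cells and 17252 and 15018 in G-CSF cells, most of it from Lcn2, which neutrophils also express. For 11 genes of basophils and mast cells the sum was 14127 and 11156 in 4T1-TB cells and 15966 and 12872 in G-CSF cells, most of it from Hdc, histidine decarboxylase, which neutrophils also express. The remaining lists were dim. The sum was 1640 and 1504 in 4T1-TB cells and 1817 and 1445 in G-CSF cells for 12 NK cell genes, of which 9 were not detected. It was 1696 and 1545 in 4T1-TB cells and 1721 and 1563 in G-CSF cells for 13 dendritic cell genes, 8 of them not detected. For 13 genes of megakaryocytes and platelets, 11 of them not detected, it was 1772 and 1601 in 4T1-TB cells and 1953 and 1773 in G-CSF cells. These 3 sums stayed between 1445 and 1953. It was 1864 and 1387 in 4T1-TB cells and 1911 and 2033 in G-CSF cells for 10 genes of stem and progenitor cells, 7 of them not detected. For 12 genes of endothelium and stroma, 7 of them not detected, it was 3743 and 2445 in 4T1-TB cells and 4460 and 4176 in G-CSF cells, lowest on 4T1-TB 2. The part of any of these cells in the differences between the groups was not tested.

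The called genes outside cell division and granules had varied roles. Hvcn1, a voltage-gated proton channel that sustains the oxidative burst, had 9.29 and 9.33 in 4T1-TB cells and 7.92 and 7.48 in G-CSF cells, with WT at 7.44 and 7.49 (log2 difference 1.61, SE 0.14, adjusted p = 0.684 from limma). Another Hvcn1 probe had 8.50 and 8.46 in 4T1-TB cells and 8.34 and 7.03 in G-CSF cells, so that on this probe G-CSF 1 was near the 4T1-TB level. Mlst8, a subunit shared by both mTOR kinase complexes, had 10.39 and 10.72 in 4T1-TB cells and 9.52 and 8.07 in G-CSF cells (1.76, SE 0.45), and its second called probe 9.92 and 9.74 in 4T1-TB cells and 8.88 and 7.56 in G-CSF cells. Over the list of mTOR complexes and regulators, 1 of 14 measured genes was called higher (0.142% of all genes), with 2 higher and 4 lower without overlap (14.9% and 14.2% of all genes). Mtor itself had 7.62 and 7.70 in 4T1-TB cells and 7.96 and 7.68 in G-CSF cells.

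Etfa, a subunit of the flavoprotein that passes electrons from fatty acid oxidation to the respiratory chain, had 9.82 and 11.26 in 4T1-TB cells and 8.54 and 8.50 in G-CSF cells, against 13.08 and 13.04 in WT cells (log2 difference 2.02, SE 0.43, adjusted p = 1 from limma). Its 4T1-TB replicates differed by more than 2-fold, and 2 dimmer Etfa probes differed by 0.25 and 0.22 with overlapping groups. Ndufv3, a subunit of respiratory complex I, had 10.80 and 11.06 in 4T1-TB cells and 10.15 and 9.56 in G-CSF cells (1.07, SE 0.20). Trak2, an adaptor that ties mitochondria to kinesin motors, had 8.74 and 9.16 in 4T1-TB cells and 7.84 and 7.97 in G-CSF cells (1.04, SE 0.16). In the list of oxidative phosphorylation, 14 of 38 measured genes were higher in 4T1-TB cells without overlap and 1 lower, against 14.9% and 14.2% of all genes, with a median difference of 0.12. Examples were Cox5a, a subunit of cytochrome c oxidase, with 10.97 and 10.80 in 4T1-TB cells and 10.35 and 10.09 in G-CSF cells (0.66, SE 0.15), and Ndufa2 of complex I with 10.97 and 11.07 in 4T1-TB cells and 10.39 and 10.47 in G-CSF cells (0.59, SE 0.13). These are small differences with close replicates.

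Ppia, cyclophilin A, a prolyl isomerase with many near-identical pseudogenes, was the brightest called gene. It had 12.24 and 12.15 in 4T1-TB cells and 10.59 and 11.29 in G-CSF cells, with WT at 12.29 and 12.29, and was called with 2 probes (1.25 and 1.10). Here the 4T1-TB arrays lay at the WT level and the G-CSF arrays below it. Zmpste24, the protease that trims prelamin A, had 10.20 and 10.08 in 4T1-TB cells and 9.24 and 7.95 in G-CSF cells, and Tmem216, a protein of the base of cilia, 9.52 and 9.68 in 4T1-TB cells and 8.70 and 7.67 in G-CSF cells. H2ac24, a histone H2A gene of a family of near-identical copies, had 11.29 and 11.23 in 4T1-TB cells and 10.37 and 10.01 in G-CSF cells (1.07, SE 0.12). The remaining called genes were the zinc transporter Slc39a11 (1.25), the slow skeletal troponin Tnnt1 (1.14), the U6 RNA-binding Lsm5 (1.02) and St3gal5, which makes the ganglioside GM3 (1.01), each higher in 4T1-TB cells. Chil3, Mlst8 and Ppia were called with 2 probes each. Further detected probes that were not called exist for 11 of the 29 called genes, and all 12 such probes had a difference above 0, between 0.22 and 0.96.

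Csta3, a stefin, one of a family of inhibitors of cysteine proteases that share long stretches of sequence, was the only gene called lower in 4T1-TB cells. Its log2 intensities were 9.11 and 9.67 in 4T1-TB cells, against 10.87 and 10.70 in G-CSF cells and 9.01 and 9.20 in WT cells (log2 difference -1.39, SE 0.19, adjusted p = 0.811 from limma). The 4T1-TB arrays were near the WT level and both G-CSF arrays above it. Stfa1 and Stfa2 overlapped between the groups: Stfa1 had 12.91 and 13.21 in 4T1-TB cells and 13.21 and 12.87 in G-CSF cells, and Stfa2 13.05 and 13.57 in 4T1-TB cells and 13.26 and 13.08 in G-CSF cells. Of 11 measured genes of the list 0 were higher and 3 lower without overlap, against 14.9% and 14.2% of all genes. Cstb, stefin B, was also lower without overlap, with 12.41 and 12.18 in 4T1-TB cells and 12.71 and 12.53 in G-CSF cells (-0.32, SE 0.12).

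Below the 2-fold criterion, some genes were lower in 4T1-TB cells without overlap, and those given here have the smallest P within a list or, as Ifitm1, one of the largest decreases. Cd33, an inhibitory receptor that binds sialic acid, had 10.19 and 9.99 in 4T1-TB cells and 10.72 and 11.35 in G-CSF cells (log2 difference -0.94, SE 0.20, adjusted p = 1 from limma), and a dimmer Cd33 probe 7.30 and 7.23 in 4T1-TB cells and 7.60 and 7.47 in G-CSF cells. Ifitm1, an interferon-induced membrane protein, had 9.40 and 9.06 in 4T1-TB cells and 9.99 and 10.31 in G-CSF cells with WT at 7.14 and 6.78 (log2 difference -0.92, SE 0.18, adjusted p = 1 from limma). Its probes disagreed: a brighter one differed by -0.34 and 2 others were far below WT in both groups. Slc11a1, which pumps metal ions out of the phagosome, had 12.16 and 12.36 in 4T1-TB cells and 12.89 and 12.81 in G-CSF cells (log2 difference -0.59, SE 0.09, adjusted p = 0.899 from limma). Slc2a6, a hexose transporter, differed by -0.33, the pro-apoptotic Bid by -0.38, the TNF family ligand Tnfsf14 by -0.47 and the zinc finger factor Klf6 by -0.50.

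No gene of G-CSF receptor signaling and its feedback was called. Of 21 measured genes 3 were higher and 3 lower without overlap, near the background. Socs3, the feedback inhibitor that the receptor induces, had 11.40 and 11.60 in 4T1-TB cells and 11.01 and 12.16 in G-CSF cells (95% interval of the difference -0.97 to 0.80). Csf3r, the G-CSF receptor, had 7.67 and 7.61 in 4T1-TB cells and 7.59 and 9.08 in G-CSF cells, against 11.06 and 11.26 in WT cells (-1.82 to 0.44). G-CSF 1 thus read Csf3r as the 4T1-TB arrays did, and G-CSF 2 lay between them and WT. Jak2, the kinase bound to the receptor, had 8.41 and 8.63 in 4T1-TB cells and 8.37 and 8.31 in G-CSF cells (-0.03 to 0.40). Prok2, a secreted factor that G-CSF induces in myeloid cells, had 12.51 and 10.93 in 4T1-TB cells and 10.81 and 13.12 in G-CSF cells, with WT at 7.24 and 7.34. Its highest and lowest value were both on G-CSF arrays (-2.33 to 1.85).

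Of 21 measured genes listed for MDSC suppression, 5 were higher and 3 lower without overlap, against 14.9% and 14.2% of all genes, and 0 were called. S100a8, a subunit of calprotectin, differed by 0.28 (95% interval 0.12 to 0.45), and its partner S100a9 by 0.01 (-0.31 to 0.34). With median centring the S100a8 difference was -0.026 and the S100a9 difference -0.21. Arg1 and Nos2, the arginine-consuming enzymes of suppressor cells, were near the undetected level, Arg1 with 7.04 and 7.08 in 4T1-TB cells and 6.83 and 7.07 in G-CSF cells and Nos2 with 6.94 and 6.97 in 4T1-TB cells and 7.00 and 7.03 in G-CSF cells. Arg2, the mitochondrial arginase, had 7.98 and 8.12 in 4T1-TB cells and 8.68 and 7.99 in G-CSF cells. Cd274, the checkpoint ligand PD-L1, had 8.29 and 8.78 in 4T1-TB cells, against 8.11 and 7.79 in G-CSF cells and 9.04 and 9.25 in WT cells (0.59, SE 0.19). Cyba, a subunit of the NADPH oxidase, had 11.47 and 11.03 in 4T1-TB cells and 9.74 and 13.25 in G-CSF cells, which places the 4T1-TB cells between the G-CSF replicates.

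The counts of the other lists are to be set against 14.9% higher and 14.2% lower over all genes. The counts were 4 higher and 2 lower of 14 genes of tertiary and secretory granules, 6 higher and 5 lower of 20 S100 and acute-phase genes and 4 higher and 3 lower of 23 myeloid transcription factors. They were 6 higher and 6 lower of 34 genes of the interferon response, 2 higher and 7 lower of 27 cytokines and chemokines and 2 higher and 5 lower of 30 genes of neutrophil receptors and adhesion. Oas2, which senses double-stranded RNA, had 10.70 and 10.81 in 4T1-TB cells and 10.32 and 10.54 in G-CSF cells (0.32, SE 0.09), and Trem3, an activating receptor, had 11.72 and 11.89 in 4T1-TB cells and 11.24 and 11.29 in G-CSF cells (0.54, SE 0.07). For MHC class II presentation the count was 0 higher and 3 lower of 15, for immediate early genes 0 higher and 4 lower of 20 and for NF-kB feedback 2 higher and 0 lower of 19. H2-Eb1, a class II beta chain, had 7.78 and 7.54 in 4T1-TB cells and 7.92 and 8.41 in G-CSF cells (-0.50, SE 0.18).

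For angiogenesis and tumor-promoting factors 3 higher and 4 lower of 20 genes were without overlap, for glycolysis and glucose uptake 6 higher and 1 lower of 24, and for ribosomal proteins 5 higher and 1 lower of 29. Anxa3, an annexin of neutrophil granules, had 13.08 and 12.97 in 4T1-TB cells and 12.87 and 11.33 in G-CSF cells, against 9.43 and 9.71 in WT cells, with G-CSF 2 farthest from the 4T1-TB level. Counts were 4 higher and 3 lower of 26 for the unfolded protein response, 1 higher and 2 lower of 13 for heat shock proteins and 1 higher and 4 lower of 22 for apoptosis. Among these lists a called gene was found in myeloid transcription factors (Cebpe, 1 of 23) and in S100 and acute-phase genes (Orm1, 1 of 20). Over all genes 0.142% were called higher, and Orm1 is also counted in the list of secondary granules.

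**Figure D4:**
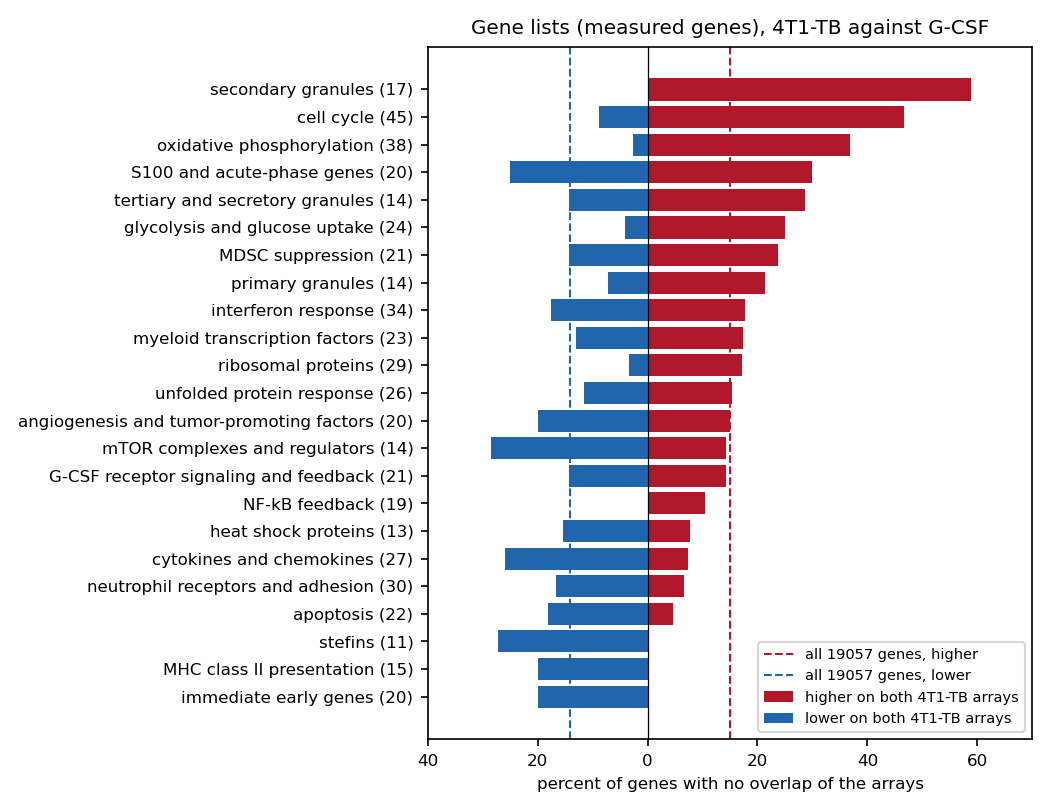
Share of the measured genes of each list (number in parentheses) with both 4T1-TB values above both G-CSF values, in red to the right, or below them, in blue to the left, in percent. The dashed lines mark the shares over all 19057 genes, 14.9% and 14.2%, and the longest red bars belong to secondary granules (10 of 17 genes), the cell cycle (21 of 45) and oxidative phosphorylation (14 of 38).

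The probes that parted the 2 G-CSF arrays had a common form. Of the 814 probes at least 2-fold apart, 586 were higher on G-CSF 2 and 228 on G-CSF 1. This direction turned with the scaling: with neqc background correction 1232 were higher on G-CSF 2 and 1400 on G-CSF 1, and with median centring 545 and 1237. On the deposited values, for 718 (88.2%) the 4T1-TB mean lay between the 2 G-CSF values. G-CSF 1 was within 0.5 of the 4T1-TB mean for 408 probes and G-CSF 2 for 112. G-CSF 2 was within 0.5 of the WT mean for 381 probes and G-CSF 1 for 108. For 191 probes G-CSF 1 read as 4T1-TB and G-CSF 2 as WT, and for 23 probes the reverse held.

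Most of the largest decreases in 4T1-TB cells without overlap came from such probes and were not called. H3f3a, histone H3.3, had 8.09 and 7.92 in 4T1-TB cells, 8.24 on G-CSF 1 and 12.04 on G-CSF 2, with WT at 11.87 and 12.05 (difference -2.14, SE 1.14). Coro1a, an actin regulator of leukocytes, had 7.10 and 7.35 in 4T1-TB cells and 7.37 and 9.53 in G-CSF cells, with WT at 13.25 and 13.21. In both of these the difference between the groups is that of G-CSF 2. Mapk14, the p38 alpha kinase (-1.32), Hebp1, a heme-binding protein (-1.18), Adgre5, the adhesion receptor CD97 (-1.14), and the kinase Mark2 (-1.01) had the same form. Hdac5, a class II histone deacetylase, and Arpc4, a subunit of the actin-nucleating Arp2/3 complex, were not detected on either 4T1-TB array and were at least 2.61-fold and 2.04-fold lower there by the group means, with G-CSF 1 at 7.07 and 7.08.

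The widest gaps between the G-CSF arrays were in bright probes of common genes. Gpx1, the cytosolic glutathione peroxidase, had 7.48 and 7.97 in 4T1-TB cells, 7.39 on G-CSF 1 and 13.36 on G-CSF 2, with WT at 13.60 on both arrays. Gpx4, which reduces lipid peroxides, had 7.71 and 8.73 in 4T1-TB cells, 7.10 on G-CSF 1 and 12.27 on G-CSF 2. A probe of the ribosomal protein Rps9 had 10.98 and 11.05 in 4T1-TB cells, 8.42 on G-CSF 1 and 14.27 on G-CSF 2. Junb, a subunit of the AP-1 transcription factor, had 8.96 and 9.60 in 4T1-TB cells, 8.61 on G-CSF 1 and 12.95 on G-CSF 2. On these 4 probes G-CSF 2 came within 0.5 of the WT mean or exceeded it, and the other 3 arrays lay far below it. In the other direction, the widest gaps were mostly in erythroid genes, and Klhl6 was an exception with close 4T1-TB values, at 11.48 and 11.50 in 4T1-TB cells, 11.22 on G-CSF 1 and 9.39 on G-CSF 2. Probes of 1 gene did not always behave alike: Coro1a also had a probe with 9.33 and 9.89 in 4T1-TB cells and 8.72 and 10.83 in G-CSF cells, and one at the undetected level on all 4 arrays with WT at 11.48 and 11.16.

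**Figure D5:**
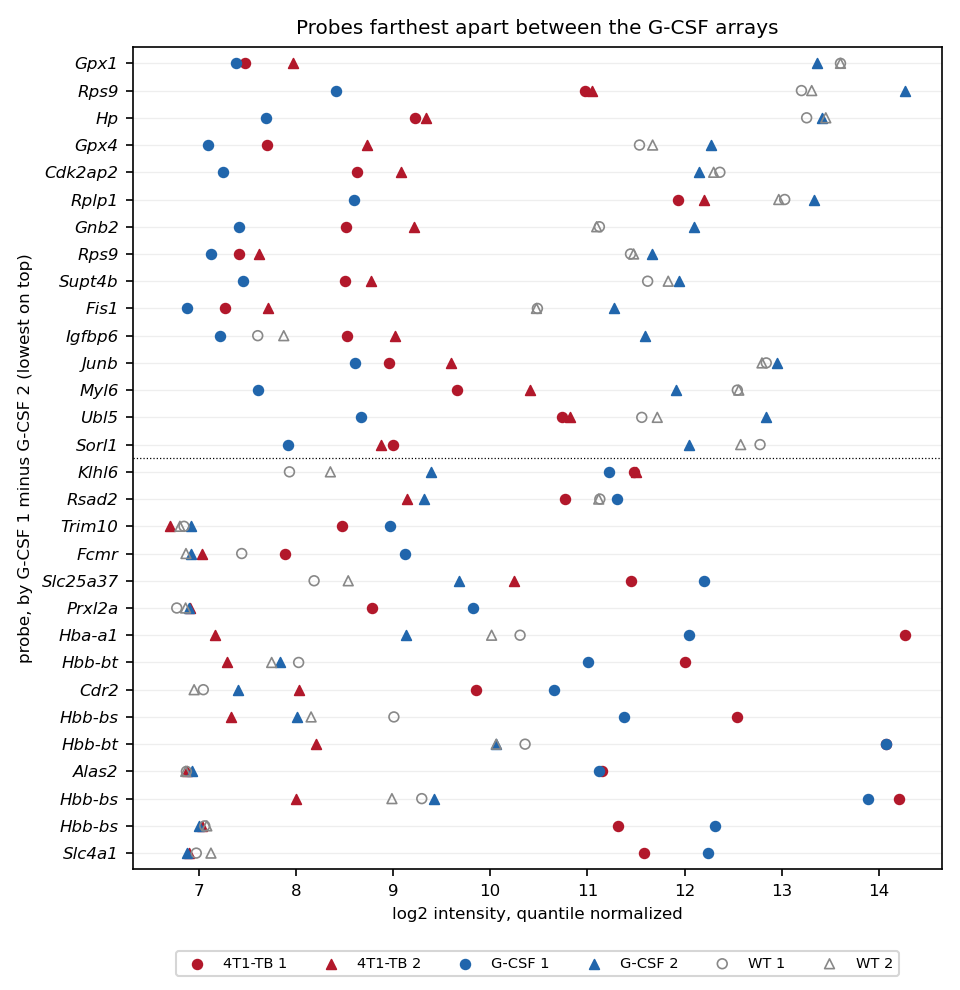
Log2 intensity of the 30 probes with the widest gaps between the G-CSF arrays, 15 higher on G-CSF 2 (above the dotted line) and 15 higher on G-CSF 1 (below it), with symbols as in the plot of called genes. Above the line the blue triangle lies near the grey WT symbols or to their right and the blue circle at the far left, and below it most rows pair the red and the blue circle.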

How the data were processed

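Splenic CD11b+Gr-1high cells were measured on 6 Illumina MouseWG-6 v2 arrays, 2 per group. The authors deposited an intensity for each of 45281 probes, read with GenomeStudio (no version is given in the sources used here), and a detection p-value for each intensity. They also deposited log2 values that were made with lumi and quantile normalization per the methods. Log2 and quantile normalization of the deposited intensities, repeated here, gave these values to within 4.99e-09. The methods name background subtraction, but the lowest intensity on each array lies between 85.3 and 91.8, so differences of dim probes are shrunken. The intensity columns of 1 4T1-TB and 1 G-CSF array carry no number and are called replicate 1 because the other column of the group is numbered 2.

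The deposited log2 values were fitted with limma 3.58.1 in R 4.3.3, as group means of the 6 arrays, and 4T1-TB minus G-CSF was tested over all probes at 2-fold and P under 0.01, and with Benjamini-Hochberg adjustment at 0.05. The methods also name a random effect for array, which was not fitted here. The samples of a group are biologic replicates per the methods, and p-values measure only the spread between these samples. Tables and figures were made with Python 3.11.15, pandas 2.3.3 and matplotlib 3.10.9. The fit was run on simulated data with independent errors and 1 spread per probe for all groups. That run cannot show how the fit behaves where the G-CSF arrays spread more. The platform annotation names a single gene for 34885 probes (19057 genes), several for 18 and none for 10378, and 34807 were matched by Entrez number with 0 symbols changed. Gene lists used 1 probe per gene, that with the highest mean over the 6 arrays, and 482 of 520 genes in pathway lists were measured. The rule for named genes took every called gene, the 12 largest increases and 12 largest decreases among detected probes without overlap, as many as 3 members of a list by smallest P, G-CSF and MDSC genes of interest and cell markers. Not all of them are printed, and further genes were chosen after their values were seen. The comparison, its lists and its tests were chosen with earlier results of these data known. Where a probe was detected on neither array of the lower group, its fold is a lower bound, for which any value under the array's lowest detected signal was set to that signal. Promoter sequences are from RefSeq (GRCm38.p6), and 25 of the 29 called genes had one. Alternatives were neqc background correction (offset 16), median centring, a filter on detected probes, a fit of the 4 arrays alone, the replicate number as a block, a robust prior with a trend, and the omission of each array in turn.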

Additional observations from a re-analysis of the deposited data

How the results depend on the processing

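Of the 34 called probes, 5 were called in every alternative and with each array left out, those of Fcnb, Orm1, Hvcn1, Birc5 and Csta3. These settings overlap: leaving out either WT array gives the same test as fitting the 4 arrays alone, with 23 probes called. The count of called probes was 65 with neqc background correction and 10 with median centring, and leaving out 1 array gave 23 to 554, the highest without G-CSF 1. With an adjusted p of 0.05 in limma, 1 probe passed where the prior was trended and robust, and leaving out 1 array gave 0 to 1310, again the highest without G-CSF 1. The cause was not tested beyond the array left out.

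Samples with the same replicate number had deviations with a correlation of 0.259 between 4T1-TB and G-CSF, -0.0208 between 4T1-TB and WT and 0.0357 between G-CSF and WT. Not every pair reached 0.1, so the numbers were not taken as pairs, and whether same-numbered 4T1-TB and G-CSF samples, which were alike in erythroid genes, came from 1 experiment is not given in the sources used here. With the replicate number as a block 32 probes were called, 31 of them among the 34, and 0 passed the adjusted test.

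The number of probes 2-fold apart between 4T1-TB 1 and 4T1-TB 2 was 436 with neqc, 358 with median centring and 51 over probes detected on all 6 arrays. It was 637 with neqc and 246 with median centring between 4T1-TB 1 and G-CSF 1, 1806 and 926 between 4T1-TB 1 and G-CSF 2, and 1109 and 1118 between 4T1-TB 2 and G-CSF 1. With neqc it was 1728 between 4T1-TB 2 and G-CSF 2, and it was 2632 with neqc and 1782 with median centring between the G-CSF arrays, the largest count under each of these settings.

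Median centring reversed the small differences of S100a8 (-0.026), S100a9 (-0.21), Tnfaip2 (-0.12), Ptpn11 (-0.065) and Dnajb1 (-0.13). Leaving out 1 array reversed 11 named genes, none of them called, with differences of -0.0075 to 0.40 for Tnfaip2, -0.012 to 0.23 for Arg1, -0.069 to 0.092 for S100a9, -0.66 to 0.49 for Socs3, -1.40 to 0.91 for Prok2, -0.64 to 0.16 for Stfa2l1, -0.63 to 0.059 for Arg2, -0.79 to 0.014 for Ccl9, -1.44 to 0.057 for Csf3r, -1.56 to 0.076 for H2-Ea and -3.67 to 0.67 for Junb. This check covered only the genes taken by the rule for named genes, and no other of them changed direction. Further printed genes were outside it, and some of these reversed with 1 G-CSF array left out. For Hp, Ngp and Cyba the 4T1-TB mean was above G-CSF 1 and below G-CSF 2, and for Stfa1 the opposite held. With 2 arrays per group and probes near an undetected log2 intensity of 7, small differences and dim genes were not resolved.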
